A study of Mus musculus with 10 samples.

Results

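The antigen receptor of B cells, and its precursor on pro-B and pre-B cells, has no enzyme activity of its own. Src family kinases such as Lyn and Blk phosphorylate the Igα and Igβ chains, Syk binds them and is activated, and Syk phosphorylates the adaptor Blnk, on which Btk and phospholipase Cγ2 are assembled. Phospholipase Cγ2 (Plcg2) then makes the second messengers that release calcium and activate protein kinase Cβ (Prkcb), while the adaptor Pik3ap1, also called BCAP, recruits phosphoinositide 3-kinase, and Sh3bp5 is a protein that binds Btk and inhibits it. Pax5 is the transcription factor that commits lymphoid progenitors to the B cell lineage, and Blnk is a textbook Pax5 target.

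The 9 genes for these proteins were chosen by name (Blnk, Syk, Btk, Lyn, Blk, Plcg2, Pik3ap1, Prkcb and Sh3bp5) from the 25579 genes of the expression tables. All 9 reached a level of at least 1 TPM (the read count normalised for gene length and library total) in some library and were among the 13436 genes that entered the test. RNA-seq was done on pro-B cells sorted ex vivo from the bone marrow of C57BL/6 mice, with 2 libraries for each of 4 genotypes. Pax5(+/+) cells were the control. Pax5(+/-) cells have 1 intact copy of Pax5, and Pax5(R31Q/-) cells have as their single copy an allele, made by CRISPR editing and backcrossed to C57BL/6, that carries a substitution in the DNA-binding paired domain. Pax5(fl/fl) Vav-Cre cells delete Pax5 through a Cre that is active in all haematopoietic cells; their label says progenitor cell where the others say pro-B cell. Pax5 peaks came from ChIP-seq with an antibody to the paired domain on pro-B cells cultured for a short time on OP9 stroma with IL-7, 1 library from Rag2(-/-) cells with intact Pax5 and 1 from Pax5(R31Q/-) cells. The Rag2(-/-) list is called the Pax5(+/+) list below. By their genotype labels, the lists differ in Rag2 as well as in Pax5, and these differences cannot be told apart. The description label of the second ChIP library writes Rag2(R31Q/-), while its genotype label writes Pax5(R31Q/-).

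The RNA libraries held between 21625407 and 34488454 reads in genes, as recovered from the TPM values. Vav-Cre replicate 1 had the fewest, and the next lowest library had 29916566. The 9 genes had between 1354 and 42034 reads each in a library. Pax5 mRNA stood at 418 and 444 TPM in Pax5(+/+) cells, between 272 and 306 TPM in the Pax5(+/-) and Pax5(R31Q/-) libraries, and at 1242 and 1409 TPM in the Vav-Cre libraries, where a total over the gene does not show whether the floxed part is gone. How the Vav-Cre cells were gated is not given in the sources used here. Of 14 pro-B markers, 9 were lower and 2 higher in Vav-Cre than in Pax5(+/+) cells, and 2 were lower in Pax5(R31Q/-) cells, where 11 had an unadjusted p under 0.05. The summed level of 10 G2/M genes was 523 and 545 TPM in the Vav-Cre libraries against 1675 to 2845 TPM in the other 6, and all 10 were lower there. The sum of 10 myeloid markers ranged from 322 to 2085 TPM, with both extremes in the Vav-Cre libraries, and 1 of the 10 passed there. The sum of 10 T and NK markers was 160 and 203 TPM there against 66.2 to 92.6 TPM elsewhere, with 4 of 6 tested genes higher, while Cd3d, Cd3e and Cd3g, which define T cells, were under 1 TPM in every library. Summed erythroid markers stayed between 5.89 and 34.2 TPM, and of 7 mature B cell markers tested, 2 were lower in Pax5(R31Q/-) and 4 in Vav-Cre cells. Of 8 housekeeping genes, none passed in Pax5(R31Q/-) cells in limma or limma-voom, with 2 at an unadjusted p under 0.05, and 3 did in Vav-Cre cells. The part of the cell cycle and of other cells in the differences below was not tested. Nothing in the labels says that libraries came from separate mice, so p-values measure the spread between these libraries only, and fewer cells of a type cannot be told apart from less RNA per cell.

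Differences are given as log2 fold changes of TPM + 1 with their standard errors, tested with limma across all genes, with p-values adjusted by the method of Benjamini and Hochberg. In Pax5(R31Q/-) against Pax5(+/+) cells, 3 of the 9 genes were lower (Pik3ap1, Sh3bp5 and Lyn) and 1 was higher (Plcg2) at an adjusted p under 0.05. Over all genes tested, 2.55% were lower and 1.62% higher. The study had already named Pik3ap1 and Sh3bp5 among Pax5 targets deregulated in Pax5(R31Q/-) cells. The members were chosen with earlier results of these data known, so their count does not measure enrichment. Without either library of Pax5(+/+), Pax5(+/-) or Pax5(R31Q/-) the count was 2 (Pik3ap1 and Sh3bp5). In Vav-Cre against Pax5(+/+) cells, 7 of the 9 were lower and 2 (Blk and Plcg2) higher, where 19.7% and 16.2% of all genes were. Pax5(+/-) cells showed no call among the 9, with 3 (Lyn, Pik3ap1 and Plcg2) at an unadjusted p under 0.05 in limma and none called by limma-voom on recovered reads; 0.0223% of all genes were lower and 0% higher. The members' median log2 fold change was -0.14 in Pax5(R31Q/-), -0.07 in Pax5(+/-) and -0.87 in Vav-Cre cells, beside medians over all genes of 0.04, 0.02 and -0.11. The last of these was -0.02 and -0.01 when libraries were rescaled by median ratios or quantiles, 0.011 without Vav-Cre replicate 1 and -0.22 without replicate 2, so changes in Vav-Cre cells are to be read against that shift. Both comparisons of mutant cells use the same Pax5(+/+) libraries.

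**Figure D1:**
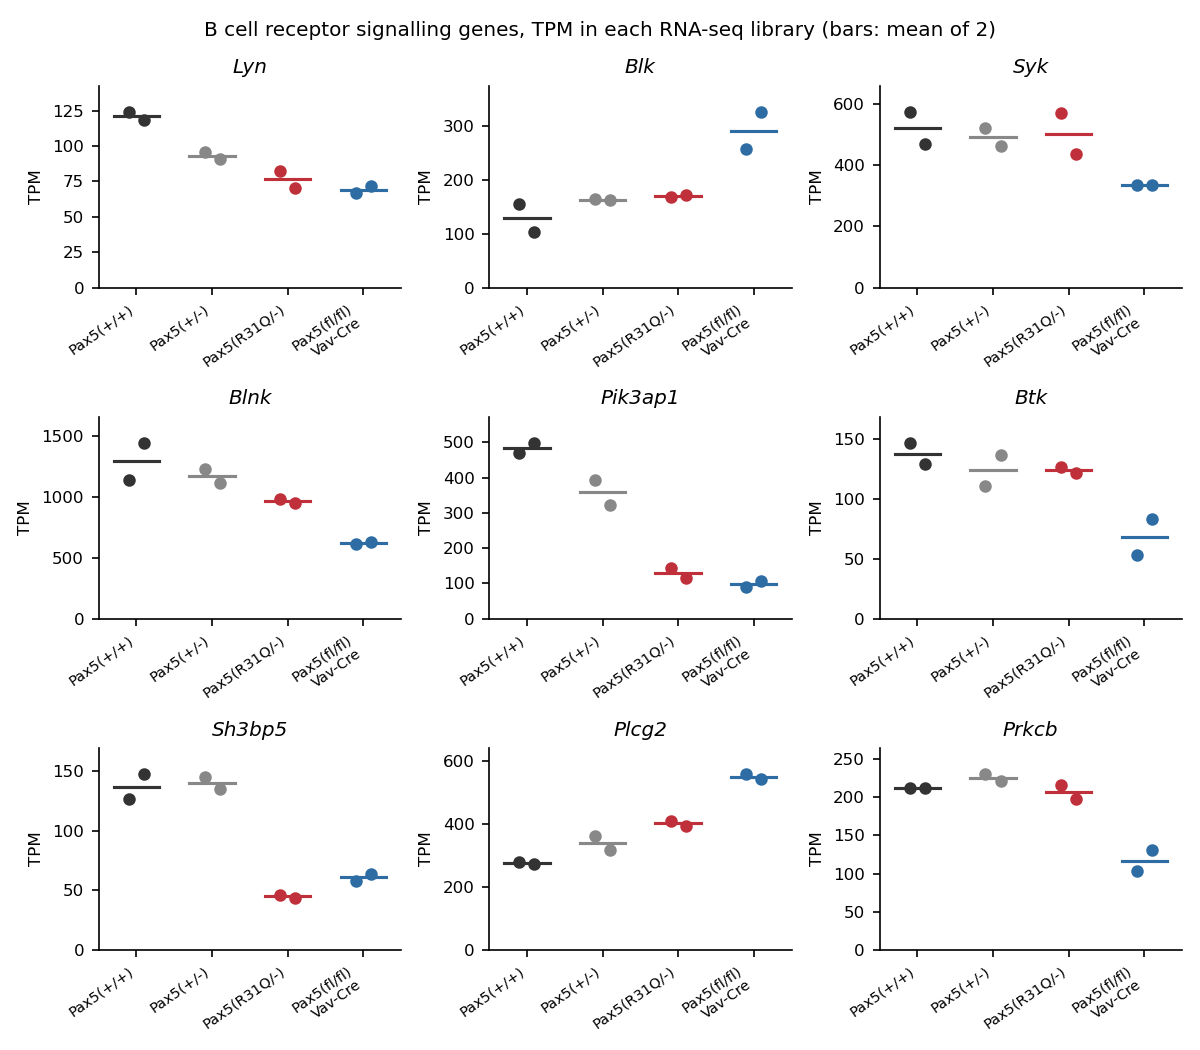
TPM of the 9 genes (vertical axes, each from 0) in each of the 8 libraries, grouped by genotype along the horizontal axis. Points are libraries and bars are means of 2; Pik3ap1 and Sh3bp5 sit low in both Pax5(R31Q/-) and Vav-Cre libraries, while Syk, Btk and Prkcb are low in the Vav-Cre libraries only.

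Pik3ap1 had the widest fall of the 9. Its level was 471 and 497 TPM in Pax5(+/+), 392 and 324 TPM in Pax5(+/-), 143 and 115 TPM in Pax5(R31Q/-) and 90.5 and 105 TPM in Vav-Cre libraries. The ranges of the first 3 genotypes did not overlap, and the Vav-Cre libraries lay below the lowest Pax5(R31Q/-) library. Against Pax5(+/+) cells, the mean was 3.76-fold lower in Pax5(R31Q/-) (log2 fold change -1.91, SE 0.15, adjusted p = 0.0011) and 4.94-fold lower in Vav-Cre cells (log2 fold change -2.30, SE 0.15, adjusted p = 4.4e-05). Both differences also passed the study's stricter rule of more than 3-fold and a mean over 5 TPM, met in the direction of lower expression by 0.558% and 3.45% of all genes. Pik3ap1 was likewise lower in Pax5(R31Q/-) than in Pax5(+/-) cells, which carry the same number of Pax5 copies (log2 fold change -1.47, SE 0.15, adjusted p = 0.012). Bank1, its relative among scaffold proteins, had a mean of 9.87 TPM in Pax5(+/+) cells and means of 5.67 and 4.73 TPM in Pax5(R31Q/-) and Vav-Cre cells (adjusted p = 0.25 and 0.038). For Pik3ap1 itself, the difference between Pax5(R31Q/-) and Vav-Cre cells missed the threshold (log2 fold change 0.39, 95% interval 0.03 to 0.74, adjusted p = 0.083).

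The Pax5(+/+) list held 5 peaks within 10 kb of Pik3ap1, on the minus strand of chromosome 19 from 41272541 to 41385102 (GRCm38, the build of the files). Of these, 4 were met by a Pax5(R31Q/-) peak, counting an overlap of 1 bp or more. One of them lies downstream of the gene, in Tm9sf3. They also include the peak at the transcription start site (TSS) and a peak in an intron 86931 bp downstream of it, which alone among the 44 Pax5(+/+) peaks at the 9 genes held the letters GCGTGAC. The peak that was not met was 422 bp wide and lay in an intron 2532 bp downstream of the TSS. The Pax5(R31Q/-) list had in turn 2 intronic peaks that the Pax5(+/+) list lacked, at 30469 and 56112 bp. The 300 bp around the midpoints of 3 of these peaks are shown because they hold the letters searched for: GCGTGAC, from the 3′ side of the Pax5 recognition sequence, and GCANCCA, searched as its 5′ side, on either strand, with no overlap between these motifs. They are read 5′ to 3′ on the strand of the gene, from the RefSeq sequence of GRCm38, with matches in capitals.

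Pik3ap1, intronic peak, met, chr19:41298021-41298320: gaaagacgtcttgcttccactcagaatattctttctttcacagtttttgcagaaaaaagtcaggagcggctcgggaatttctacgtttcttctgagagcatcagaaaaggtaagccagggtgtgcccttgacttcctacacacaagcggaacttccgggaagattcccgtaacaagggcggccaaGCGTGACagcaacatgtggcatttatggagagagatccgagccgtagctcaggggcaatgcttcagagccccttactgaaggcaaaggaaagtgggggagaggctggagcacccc

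Pik3ap1, TSS peak, met, chr19:41385217-41385516: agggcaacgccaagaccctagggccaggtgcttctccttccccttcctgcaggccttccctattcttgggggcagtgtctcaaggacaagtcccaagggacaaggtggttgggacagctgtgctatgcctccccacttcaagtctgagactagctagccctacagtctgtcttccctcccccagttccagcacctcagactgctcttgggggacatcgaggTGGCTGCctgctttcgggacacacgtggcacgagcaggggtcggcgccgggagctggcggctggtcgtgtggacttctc

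Pik3ap1, intronic peak near the TSS, not met, chr19:41382420-41382719: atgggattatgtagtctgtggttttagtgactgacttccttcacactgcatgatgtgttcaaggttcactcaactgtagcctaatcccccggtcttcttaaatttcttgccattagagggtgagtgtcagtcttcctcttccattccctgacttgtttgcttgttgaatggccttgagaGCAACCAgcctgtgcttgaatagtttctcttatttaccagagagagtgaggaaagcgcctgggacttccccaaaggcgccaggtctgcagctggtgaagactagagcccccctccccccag

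Over all 41983 Pax5(+/+) peaks, 3.78% of such windows held GCGTGAC and 14.5% held GCANCCA. Among met peaks the shares were 7.29% and 24.1%, and among peaks not met 1.68% and 8.74%, but most of the latter lay in repeats. Where under 50% of the window was masked, they were 7.28% and 24.4% for met peaks and 5.23% and 25.5% for the others. Of the 33 met windows at the 9 genes, 8 held GCANCCA, as did 4 of the 11 that were not met.

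Sh3bp5, for the protein that binds and inhibits Btk, fell with Pik3ap1 in Pax5(R31Q/-) cells but ordered the genotypes differently. It stood at 127 and 148 TPM in Pax5(+/+), 145 and 135 TPM in Pax5(+/-), 46.4 and 43.5 TPM in Pax5(R31Q/-), and 58.0 and 63.9 TPM in Vav-Cre libraries. The first 2 genotypes overlapped, and both Pax5(R31Q/-) libraries were the lowest of the 8. The Pax5(R31Q/-) mean was 3.05-fold lower than that of Pax5(+/+) cells (log2 fold change -1.59, SE 0.12, adjusted p = 0.00092), and 3.12-fold lower than in Pax5(+/-) cells (log2 fold change -1.62, SE 0.12, adjusted p = 0.0044). Both values passed the 3-fold rule narrowly. The rule was missed against Pax5(+/+) cells without Pax5(+/+) replicate 2 (-1.48) or Pax5(R31Q/-) replicate 2 (-1.54), and against Pax5(+/-) cells without Pax5(+/-) replicate 1 (-1.57) or Pax5(R31Q/-) replicate 2 (-1.58). In Vav-Cre cells it was 2.25-fold lower than in Pax5(+/+) cells (log2 fold change -1.16, SE 0.12, adjusted p = 0.00034). Sh3bp5 was lower in Pax5(R31Q/-) than in Vav-Cre cells (log2 fold change -0.43, SE 0.12, adjusted p = 0.029), a call lost when any of 5 of the 8 libraries was left out (adjusted p up to 0.16). These 2 genes were the only members called in Pax5(R31Q/-) against Pax5(+/-) cells, where 0.35% of all genes were lower and 0.268% higher. With 1 library left out, that count ran from 0 to 2. It was 0 without Pax5(+/-) replicate 1 and without either Pax5(R31Q/-) replicate, and 1 (Sh3bp5) without Pax5(+/-) replicate 2. The fold changes without these libraries stayed between -1.62 and -1.32 for Pik3ap1 and between -1.67 and -1.57 for Sh3bp5.

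Sh3bp5 lies on the minus strand of chromosome 14 from 31372614 to 31436100. It had 3 Pax5(+/+) peaks, of which the one at its TSS was met and the other 2 were not: 1 upstream of the gene and 1 in an intron, 982 bp downstream of the start of a shorter annotated transcript. A Pax5(R31Q/-) peak without a counterpart lay 7147 bp downstream of that second start. The TSS peak and the intronic peak that was not met are shown in the same way.

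Sh3bp5, TSS peak, met, chr14:31435991-31436290: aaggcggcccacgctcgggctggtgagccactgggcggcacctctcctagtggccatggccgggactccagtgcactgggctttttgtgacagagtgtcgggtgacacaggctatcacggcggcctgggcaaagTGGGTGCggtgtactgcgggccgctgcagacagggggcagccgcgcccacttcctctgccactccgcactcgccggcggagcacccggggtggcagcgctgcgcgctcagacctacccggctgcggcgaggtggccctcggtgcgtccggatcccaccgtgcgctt

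Sh3bp5, intronic peak at the second start, not met, chr14:31416545-31416844: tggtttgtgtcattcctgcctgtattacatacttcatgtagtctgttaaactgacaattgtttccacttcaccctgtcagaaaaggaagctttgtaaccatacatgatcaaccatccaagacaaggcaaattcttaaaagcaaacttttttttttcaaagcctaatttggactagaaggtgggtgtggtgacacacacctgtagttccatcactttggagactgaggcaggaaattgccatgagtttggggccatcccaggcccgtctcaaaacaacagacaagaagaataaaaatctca

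The TSS window held 1 match to GCANCCA, and the intronic window held neither motif. The intronic peak was also the 1 member peak within 1 kb of an annotated TSS that was not met.

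Among the kinases that act first, Lyn had means that fell from genotype to genotype, though no step between neighbouring genotypes was called. Its level was 124 and 118 TPM in Pax5(+/+), 95.5 and 90.7 TPM in Pax5(+/-), 82.5 and 70.2 TPM in Pax5(R31Q/-) and 66.8 and 71.6 TPM in Vav-Cre libraries. The last 2 genotypes overlapped, and the others did not. Lyn was 1.59-fold lower in Pax5(R31Q/-) (log2 fold change -0.66, SE 0.12, adjusted p = 0.023) and 1.75-fold lower in Vav-Cre than in Pax5(+/+) cells (log2 fold change -0.80, SE 0.12, adjusted p = 0.0017). The first call was lost without either library of Pax5(+/+), Pax5(+/-) or Pax5(R31Q/-) (adjusted p 0.061 to 0.21). Pax5(+/-) cells lay 0.38 lower on the log2 scale, with an adjusted p of 0.55 and a 95% interval from -0.65 to -0.10. The Pax5(R31Q/-) value against Pax5(+/-) cells was -0.29 (95% interval -0.56 to -0.01, adjusted p = 0.53). Pax5(R31Q/-) and Vav-Cre cells differed by 0.14 (95% interval -0.14 to 0.41, adjusted p = 0.38).

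Blk, the Src family kinase most typical of the B lineage, went the other way in Vav-Cre cells. It had 156 and 103 TPM in Pax5(+/+), 164 and 162 TPM in Pax5(+/-), 167 and 171 TPM in Pax5(R31Q/-) and 256 and 325 TPM in Vav-Cre libraries. The Vav-Cre libraries were above all others, and the 2 Pax5(+/+) libraries were far apart. Blk was 2.25-fold higher in Vav-Cre than in Pax5(+/+) cells (log2 fold change 1.18, SE 0.20, adjusted p = 0.0032) and lower in Pax5(R31Q/-) than in Vav-Cre cells by 0.77 on the log2 scale (SE 0.20, adjusted p = 0.023). Its difference of 0.42 between Pax5(R31Q/-) and Pax5(+/+) cells had an adjusted p of 0.31.

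Set among 7 Src family kinases (Lyn, Blk, Fyn, Lck, Fgr, Yes1 and Src), Lyn made up 28.2% and 29.8% of their summed TPM in Pax5(+/+), 20.2% and 19.6% in Pax5(+/-), 19.0% and 16.2% in Pax5(R31Q/-) and 9.10% and 8.36% in Vav-Cre libraries. Lck, best known from T cells, took 13.8% and 16.0% in Pax5(+/+), 20.3% and 21.1% in Pax5(+/-), 21.7% and 22.7% in Pax5(R31Q/-) and 37.2% and 31.6% in Vav-Cre libraries. The sum was 397 to 474 TPM in the first 6 libraries and 734 and 857 TPM in Vav-Cre cells. Lck was higher in Pax5(R31Q/-) (log2 fold change 0.63, SE 0.10, adjusted p = 0.013) and Vav-Cre cells (log2 fold change 2.12, SE 0.10, adjusted p = 1.0e-05). Pax5(+/-) cells had a like value of 0.64 (SE 0.10) that missed the threshold (adjusted p = 0.097), and Pax5(R31Q/-) and Pax5(+/-) cells differed by -0.0023 (95% interval -0.23 to 0.22). Fgr, a family member of myeloid cells, and Src rose from means of 3.09 and 1.71 TPM in Pax5(+/+) to 34.2 and 18.8 TPM in Vav-Cre cells (adjusted p = 0.00013 and 9.4e-05). Fgr was 28.0 and 40.4 TPM in the Vav-Cre libraries whose summed myeloid markers were 2085 and 322 TPM. Fyn had means of 100 and 111 TPM in Pax5(+/+) and Vav-Cre cells (adjusted p = 0.65).

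**Figure D2:**
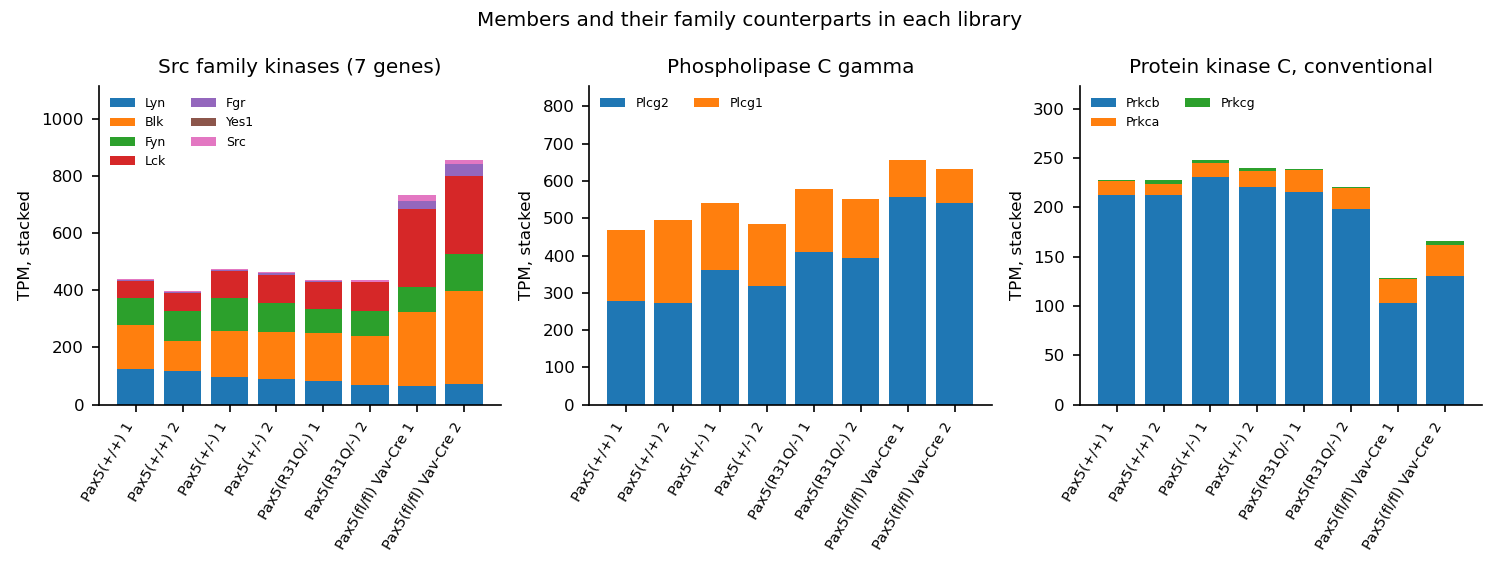
Stacked TPM (vertical axes, from 0) of 7 Src family kinases, of both phospholipase Cγ genes and of the conventional protein kinase C genes, with 1 bar per library. In the Vav-Cre libraries Lck and Blk make up most of a taller bar of Src family kinases, Plcg2 takes a larger part of its bar, and the Prkcb bar is shorter.

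Syk was unlike Pik3ap1 and Sh3bp5 in Pax5(R31Q/-) cells. It stood at 573 and 468 TPM in Pax5(+/+), 521 and 464 TPM in Pax5(+/-), 571 and 436 TPM in Pax5(R31Q/-) and 334 and 336 TPM in Vav-Cre libraries. The first 3 genotypes overlapped and the Vav-Cre libraries lay below them. The Pax5(R31Q/-) difference from Pax5(+/+) was -0.05 (95% interval -0.43 to 0.32). Syk was 1.55-fold lower in Vav-Cre than in Pax5(+/+) cells (log2 fold change -0.63, SE 0.16, adjusted p = 0.020), a call lost without Pax5(+/+) replicate 1 (adjusted p = 0.10), without Vav-Cre replicate 1 (0.071) or with quantile normalization (0.055). Zap70, the Syk relative of T cells, had 4.89 to 17.1 TPM in every library and passed in neither comparison. Its value in Pax5(R31Q/-) against Pax5(+/+) cells was -1.03 (95% interval -1.61 to -0.45, adjusted p = 0.068).

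Blnk, the adaptor that joins Syk to Btk and Plcg2, had the highest TPM of the 9 in every library, between 27.5% and 42.5% of their sum. It was at 1140 and 1439 TPM in Pax5(+/+), 1224 and 1116 TPM in Pax5(+/-), 982 and 949 TPM in Pax5(R31Q/-) and 613 and 627 TPM in Vav-Cre libraries. Pax5(R31Q/-) libraries lay below the Pax5(+/+) and Pax5(+/-) ranges and above the Vav-Cre range. The fall in Vav-Cre cells was 2.08-fold (log2 fold change -1.05, SE 0.14, adjusted p = 0.00098), and Pax5(R31Q/-) cells exceeded Vav-Cre cells by 0.64 (SE 0.14, adjusted p = 0.011). Against Pax5(+/+) cells, the Pax5(R31Q/-) value of -0.41 (95% interval -0.73 to -0.09) had an adjusted p of 0.17. Its T cell counterpart Lcp2 fell from a mean of 16.6 TPM in Pax5(+/+) to 2.44 TPM in Vav-Cre cells (adjusted p = 0.00029), and Clnk, the third adaptor of this family, rose from 0.048 to 9.04 TPM (adjusted p = 4.0e-05).

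Btk, the Tec family kinase mutated in X-linked agammaglobulinaemia, was at 146 and 129 TPM in Pax5(+/+), 110 and 137 TPM in Pax5(+/-), 126 and 122 TPM in Pax5(R31Q/-) and 53.2 and 83.4 TPM in Vav-Cre libraries. The Pax5(R31Q/-) libraries lay just under the Pax5(+/+) range and within that of Pax5(+/-), and the Vav-Cre libraries were below all others. Btk was 2.01-fold lower there (log2 fold change -1.03, SE 0.21, adjusted p = 0.0075), with an adjusted p of 0.052 without Pax5(+/+) replicate 1. In Pax5(R31Q/-) cells the value was -0.14 (95% interval -0.63 to 0.34), while Sh3bp5 fell by 1.59 in the same cells. Tec, the other family member above 5 TPM, had a mean of 39.8 TPM in Pax5(+/+) cells and means of 67.0 and 31.5 TPM in Pax5(R31Q/-) and Vav-Cre cells (adjusted p = 0.16 and 0.46). The Sh3bp5 relative Sh3bp5l was at 40.3, 41.4 and 33.6 TPM (adjusted p = 0.87 and 0.14).

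Plcg2 ordered the genotypes the opposite way to Lyn. It was at 278 and 273 TPM in Pax5(+/+), 362 and 317 TPM in Pax5(+/-), 409 and 393 TPM in Pax5(R31Q/-) and 557 and 541 TPM in Vav-Cre libraries. No ranges overlapped between any of the 4 genotypes. Plcg2 was 1.46-fold higher in Pax5(R31Q/-) (log2 fold change 0.54, SE 0.11, adjusted p = 0.034) and 1.99-fold higher in Vav-Cre than in Pax5(+/+) cells (log2 fold change 0.99, SE 0.11, adjusted p = 0.00039). The Pax5(R31Q/-) call was lost without either library of Pax5(+/+), Pax5(+/-) or Pax5(R31Q/-) (adjusted p 0.061 to 0.25) and under 4 of 7 other settings (up to 0.074). Plcg1, the other phospholipase Cγ gene, fell from a mean of 206 TPM in Pax5(+/+) to 95.6 TPM in Vav-Cre cells (log2 fold change -1.10, SE 0.12, adjusted p = 0.00043) and was at 163 TPM in Pax5(R31Q/-) cells (adjusted p = 0.19). The ratio of Plcg2 to Plcg1 was 1.47 and 1.23 in Pax5(+/+), 2.04 and 1.89 in Pax5(+/-), 2.43 and 2.49 in Pax5(R31Q/-) and 5.56 and 5.95 in Vav-Cre libraries. Their sum ranged from 467 to 657 TPM.

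Prkcb, which carries the signal from diacylglycerol to NF-κB, was at 213 and 212 TPM in Pax5(+/+), 230 and 221 TPM in Pax5(+/-), 216 and 198 TPM in Pax5(R31Q/-) and 103 and 130 TPM in Vav-Cre libraries. The Vav-Cre libraries lay below the other 6, which ran from 198 to 230 TPM. It was 1.82-fold lower there (log2 fold change -0.87, SE 0.13, adjusted p = 0.0019), and differed from Pax5(+/+) by -0.04 in Pax5(R31Q/-) cells (95% interval -0.34 to 0.26). Prkca, its widely expressed relative, rose from a mean of 12.3 TPM to 21.9 TPM in Pax5(R31Q/-) (adjusted p = 0.044) and 27.9 TPM in Vav-Cre cells (adjusted p = 0.0018). The ratio of Prkcb to Prkca was 16.2 and 18.5 in Pax5(+/+), 9.70 and 9.22 in Pax5(R31Q/-), and 4.28 and 4.11 in Vav-Cre libraries.

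**Figure D3:**
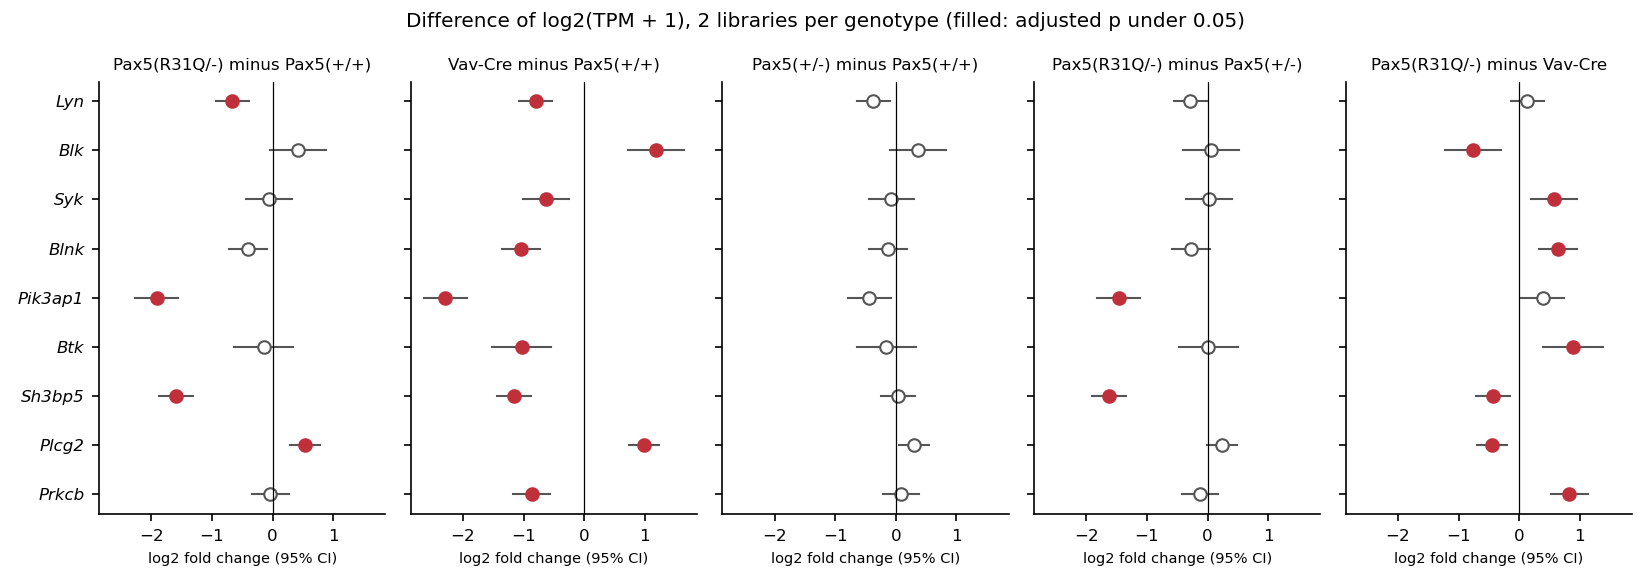
Log2 fold changes of TPM + 1 (horizontal axes) of the 9 genes (vertical axis) in 5 comparisons, with 95% intervals and filled points where the adjusted p is under 0.05. Pik3ap1 and Sh3bp5 are at -1.91 and -1.59 in Pax5(R31Q/-) against Pax5(+/+) cells, while Syk, Btk and Prkcb lie near 0 there and below 0 in Vav-Cre cells.

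Compared directly, 7 of the 9 genes differed between Pax5(R31Q/-) and Vav-Cre cells, where 14.7% of all genes were lower and 19.9% higher in Pax5(R31Q/-) cells. Blnk, Syk, Btk and Prkcb were higher and Blk, Plcg2 and Sh3bp5 lower in Pax5(R31Q/-) cells. The Syk difference of 0.57 (SE 0.16, adjusted p = 0.030) kept its call in 3 of 8 fits with a library left out (adjusted p up to 0.19) and under 3 of 7 other settings (up to 0.072). Btk and Prkcb differed by 0.89 (SE 0.21, adjusted p = 0.016) and 0.83 (SE 0.13, adjusted p = 0.0029). The count was 1 without Pax5(R31Q/-) replicate 1 (Prkcb), 2 without replicate 2 (Prkcb and Syk) and 4 without Vav-Cre replicate 2. Without Vav-Cre replicate 1, which had the highest myeloid markers, it was 6.

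At the other 7 genes most Pax5(+/+) peaks were met. All peaks were met at Blnk (4), Syk (4), Blk (4) and Btk (2), as were 7 of 10 at Plcg2, 5 of 9 at Prkcb and 2 of 3 at Lyn. With Pik3ap1 and Sh3bp5, this gave 33 of 44 met, or 75.0%. Of all Pax5(+/+) peaks 37.5% were met, but the share was 72.1% among those within 10 kb of genes with a mean of at least 5 TPM in Pax5(+/+) cells, near that of the 9 genes. A Pax5(+/+) peak lay within 1 kb of a TSS at 8 of the 9 genes, the exception being Btk, and at 66.8% of the genes tested. At all 8 a TSS peak was met, as at 96.1% of the genes with one. Peaks that were not met lay 9678 bp upstream of Lyn, in introns of Plcg2 and Prkcb, and as given above. Each list comes from 1 library, and the lists hold no peak heights, so signal under the caller's threshold at a peak that was not met cannot be seen. Of the 38 Pax5(R31Q/-) peaks at the 9 genes, 6 met no Pax5(+/+) peak (15.8%), near the 18.4% of that whole list.

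**Figure D4:**
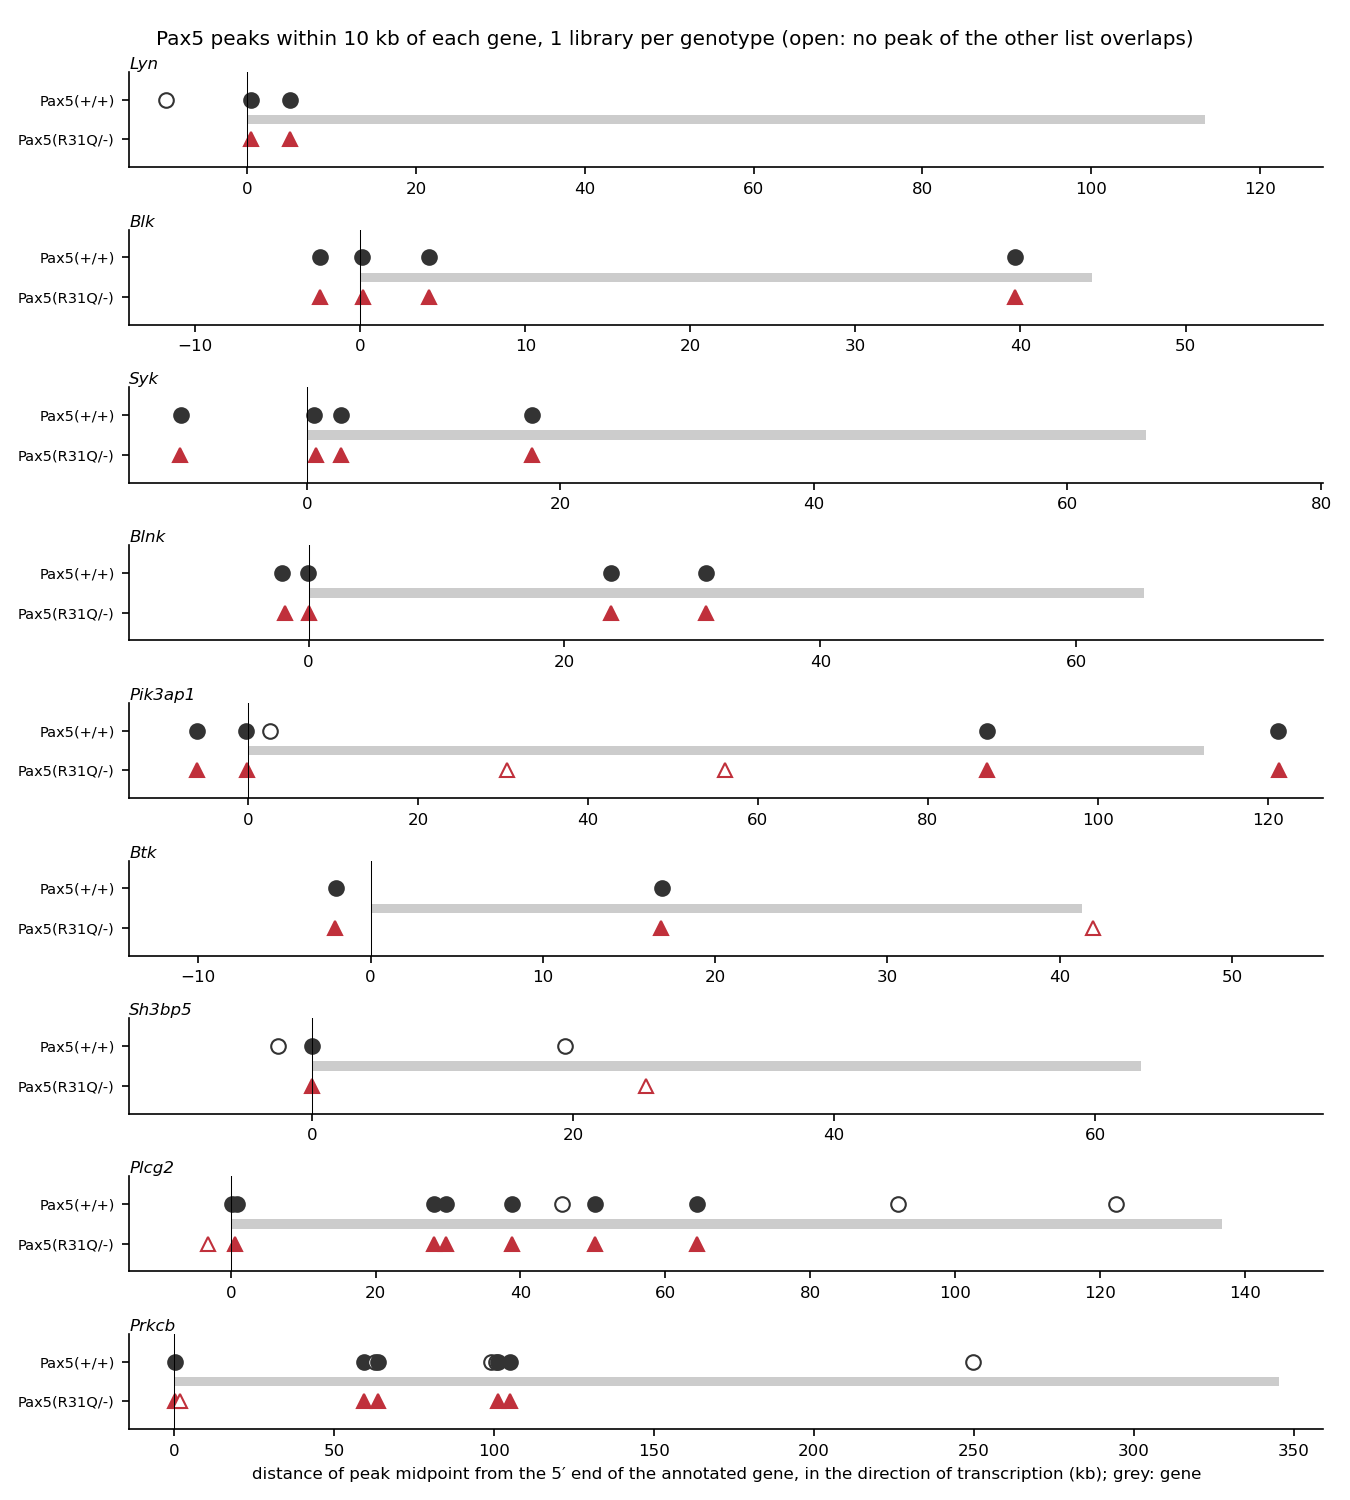
Midpoints of Pax5 peaks within 10 kb of each gene, by distance from the 5′ end of the annotated gene in the direction of transcription (horizontal axes, kb). Circles are Pax5(+/+) and triangles Pax5(R31Q/-) peaks, open where no peak of the other list overlaps, and the grey bar is the gene; 11 of 44 circles and 6 of 38 triangles are open, and at Prkcb close symbols partly cover each other.

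Apart from Btk, which had none, members called in Pax5(R31Q/-) cells and members that were not called all had a met peak at the TSS. The 3 members that fell in Pax5(R31Q/-) cells each had peaks that were not met: 2 of 3 at Sh3bp5, 1 of 3 at Lyn and 1 of 5 at Pik3ap1. All peaks were met at Blnk, Syk, Blk and Btk, which had no call there. Prkcb had 4 peaks that were not met and no call, and Plcg2, with 3 such peaks, rose. A link between peaks that were not met and changes in level was not tested.

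Of 60 other genes of the pathway, 58 were tested. This list too was chosen with earlier results of these data known, so its shares do not measure enrichment. In Pax5(R31Q/-) against Pax5(+/+) cells, 6 were lower (10.3%, beside 2.55% of all genes), 4 higher (6.9%, beside 1.62%) and 48 did not pass, with a median of -0.13. Rasgrp3, an activator of Ras, fell from 8.22 and 10.1 TPM to 1.82 and 2.19 TPM (log2 fold change -1.76, SE 0.30, adjusted p = 0.021) and was the only one past the 3-fold rule. Among those that fell were also Prkcq, protein kinase Cθ (-1.23), the small GTPase Rac2 (-0.71) and Itpr3, a calcium release channel (-0.55). The rise was 1.17 for Pik3r1, a regulatory subunit of phosphoinositide 3-kinase, 0.92 for the calcium release channel Itpr1, 0.78 for Prkca and 0.63 for Lck. No gene of the list passed in Pax5(+/-) cells in limma or limma-voom, with 9 at an unadjusted p under 0.05.

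In Vav-Cre against Pax5(+/+) cells, 15 of the 58 were lower and 11 higher, while limma-voom on recovered reads gave 12 lower and 18 higher. The limma shares of 25.9% and 19.0% lay near the 19.7% and 16.2% of all genes. Large falls were those of the receptor chain Cd79a (-2.76), Prkcq (-2.49), Lcp2 (-2.39) and the adaptor Gab1 (-1.97). The largest rises were in the adaptor Lat2 (3.64), Fgr (3.08), Itpr1 (2.19), Lck (2.12) and Pik3r1 (1.52). Rasgrp3, at 11.7 and 24.0 TPM in the Vav-Cre libraries, did not pass there. Between Pax5(R31Q/-) and Vav-Cre cells, 11 of the 58 were lower and 9 higher in Pax5(R31Q/-) cells, and these shares of 19.0% and 15.5% were likewise near the 14.7% and 19.9% of all genes.

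**Figure D5:**
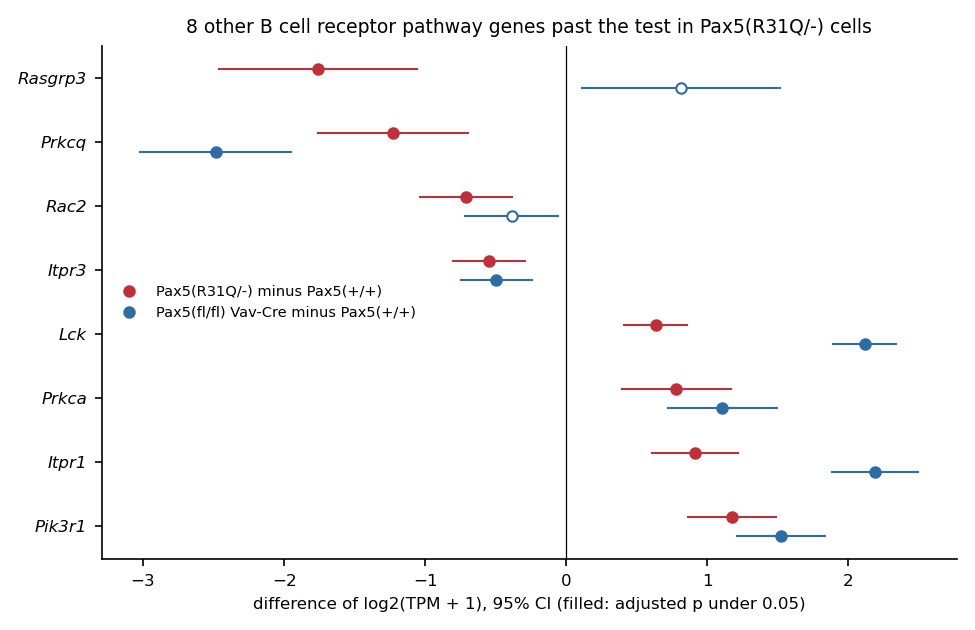
Log2 fold changes of TPM + 1 (horizontal axis) with 95% intervals for 8 other pathway genes past the test in Pax5(R31Q/-) cells (vertical axis), in Pax5(R31Q/-) and Vav-Cre cells against the same Pax5(+/+) libraries. Rasgrp3 is at -1.76 and Pik3r1 at 1.17 in Pax5(R31Q/-) cells.

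Across the 8 libraries, the genes with the pattern most like that of Pik3ap1, by Pearson correlation of log2(TPM + 1) among 10612 genes, were Bcl7a (r = 0.997) and Gfi1 (r = 0.995). Bcl7a, a chromatin remodelling subunit, was at 627 and 745 TPM in Pax5(+/+), 546 and 469 TPM in Pax5(+/-), 152 and 135 TPM in Pax5(R31Q/-) and 99.9 and 128 TPM in Vav-Cre libraries. For Sh3bp5 they were Mif4gd and Itpr3 (both r = 0.981), for Plcg2 Rcl1 and Fez2 (both 0.992 when rounded), for Lyn Thap11 (0.993) and Mtor (0.992), and for Blk 6330418K02Rik (0.995) and Ifi47 (0.994). Blnk was most like Tnks1bp1 (0.997) and Cabp4 (0.995), Syk most like Jmjd4 (0.982) and Dgkd (0.978), Btk most like Zeb2 (0.995) and Ndfip2 (0.992), and Prkcb most like Ndc1 (0.997) and Ppp2r5d (0.996). These values describe 8 points that share genotype in pairs.

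Lyn, Blk, Pik3ap1, Prkcb and Sh3bp5 overlap other annotated genes, of which the expression tables list 6330407A03Rik, at under 1 TPM in each library, within Lyn. Whether reads were counted by strand is not given in the sources used here, so reads of overlapping genes cannot be told apart where exons coincide.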

How the data were processed

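TPM values of 25579 RefSeq genes were deposited by the authors, 1 table per library. According to the study's methods and the submitters' notes, reads were freed of ribosomal sequence with Bowtie2, aligned to GRCm38 with STAR 2.4.2 and counted with featureCounts. The deposited peak lists, with a score of 0 throughout and hence positions only, came from Bowtie2 2.3.5.1 and MACS against a Rag2(-/-) input sample. They were called per library and filtered on the caller's p, with Picard 2.18.27 used to thin reads where needed. The study tested counts with DESeq2, while TPM values call for limma 3.58.1 (R 4.3.3), used here as a deviation from the authors: log2(TPM + 1) of genes with at least 1 TPM in any library, 1 fit over all 8 libraries with genotype as the term, eBayes with trend. Genes were called at an adjusted p under 0.05.

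Steps between low TPM values gave whole reads for 18206 of 18206 genes above 0 in at least 2 libraries, against 115 of the first 2000 after moving each value by up to 1 in 1000, and depths of 21625407 to 34488454 reads. Replicate numbers follow accession order and pair nothing. Peaks within 10 kb of a gene were counted as its own, and 300 bp at their midpoints read from the RefSeq GRCm38 sequence, whose promoter table had 7 of the 9 genes. The test was checked on simulated data. Members and lists were chosen with earlier results of these data known. Named genes were the members, pathway genes past the test in Pax5(R31Q/-) and the 5 largest changes each way in Vav-Cre cells, family relatives over a mean of 5 TPM, and the 2 genes most like each member; some of these, and 1 peak window, are not reported here. Alternatives changed the pseudocount, filter, samples, scaling, trend, peak distance, overlap and width, left out each library, and, chosen after seeing the data, used limma-voom on recovered reads.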

Additional observations from a re-analysis of the deposited data

How the results depend on the processing

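No paired analysis was possible because the labels carry no replicate numbers. Apart from leaving out libraries, 305 of 315 log2 fold changes of single members kept their direction and their side of the threshold. Counts of genes or peaks were judged by their ratio to the main count, and 45 of 49 stayed within the limit set for it. The other 4 were the counts of members under the rule of more than 3-fold and over 5 TPM, 2 for Pax5(R31Q/-) and 1 for Vav-Cre against Pax5(+/+), 1 for Pax5(R31Q/-) against Pax5(+/-) and 0 against Vav-Cre, lower by the rule's construction. With 1 library left out, 307 of 360 single values were kept, 41 lost their call and 12 turned sign, and the counts ran from 2 to 4 for Pax5(R31Q/-) and 7 to 9 for Vav-Cre against Pax5(+/+), from 0 to 2 for Pax5(R31Q/-) against Pax5(+/-) and from 1 to 7 against Vav-Cre, with fewer samples in each fit. The values that turned sign were never called: against Pax5(+/+), Syk ran from -0.25 to 0.14 and Prkcb from -0.10 to 0.021 in Pax5(R31Q/-), and Syk from -0.22 to 0.072, Sh3bp5 from -0.073 to 0.14 and Blnk from -0.30 to 0.036 in Pax5(+/-) cells. In Pax5(R31Q/-) against Pax5(+/-) cells, Btk ran from -0.14 to 0.17 and Syk from -0.18 to 0.21.

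Limma-voom on recovered reads, chosen after seeing the data, gave 4, 0, 9, 2 and 7 called members in the 5 comparisons. For the 58 pathway genes it gave 9 lower and 5 higher in Pax5(R31Q/-) and 12 and 18 in Vav-Cre against Pax5(+/+), 2 and 1 in Pax5(R31Q/-) against Pax5(+/-), where limma gave 0, and 18 and 9 against Vav-Cre. The cause was not tested. Peaks at the members numbered 44, and 36 without flanks or 62 within 50 kb, of which 33, 27 and 44 were met, or 30 of the 44 with 50% reciprocal overlap. Lyn and Plcg2, which differed by 1.59-fold and 1.46-fold in Pax5(R31Q/-) cells, each lost their call in 6 of 8 fits with a library left out.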
